A study of Mus musculus with 4 samples.

Results

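The genes described here are 8 transcription factors that set pituitary or gonadotrope fate or act on gonadotropin promoters: Pitx1, Nr5a1, Lhx3, Lhx4, Isl1, Foxl2, Foxp2 and Nr0b1. They were listed by name, by a rule that uses no measured value, though with earlier results of these data known, and all 8 were found among the 54532 genes of the deposited count table. Gonadotropes are the source of the hormones LH (luteinizing) and FSH (follicle-stimulating) in the anterior pituitary, and their poly(A) RNA had been sequenced from male mice of mixed strain aged 10 to 12 weeks. The labels' protocols describe sorted cells, and the series' design text describes profiling of whole pituitaries. There were 2 libraries from control mice and 2 from mice with a conditional knockout (cKO) of Gata2, which the series title calls gonadotrope-specific. The labels name no Cre driver, control alleles, sort marker or number of animals behind each library, so p-values measure the spread between libraries, which may be technical.

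Gonadotropes arise in the anterior pituitary under a sequence of transcription factors. Homeodomain factors of the PITX and LIM classes act early in the pituitary primordium and remain in hormone cells, and the nuclear receptor NR5A1 (SF-1) marks the gonadotrope lineage. In mature gonadotropes PITX1, NR5A1 and the inducible factor EGR1 act together on the LH beta gene Lhb, FOXL2 acts with SMAD proteins on the FSH beta gene Fshb, and LIM homeodomain factors act on Cga, the gene of the alpha subunit that both hormones share. GATA2 is a zinc-finger factor of gonadotropes and thyrotropes, and the comparison here asks which of these partner factors were lower when Gata2 was deleted and which were not.

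The upstream sequences through which such factors can act are shown for the 3 gonadotropin subunit genes and for Isl1, the 1 gene among the factors with a window in the table whose window held a searched motif. The windows are the 250 bases before the RefSeq start in the table for GRCm38.p6, the assembly behind mm10, written 5′ to 3′ on the gene's strand. Capitals mark matches on either strand to the following. The GATA motif was an A or T, then GATA, then an A or G. The NR5A1 motif was CAAGGNCA. The PITX motif was TAATCC, and its core the same without the last letter. The LIM homeodomain motif was TAATTA. The forkhead motif was TAAACA. For Lhb only 3 sites are shown, with 8 bases on each side of the match. Its annotated gene in GENCODE M21 starts earlier, at 45420820, so that 126 bases of the window are exonic there. The PITX core match and the second NR5A1 match lie in that exonic part, and the first NR5A1 match spans its start. All 250 bases of the Foxl2 window, and of the second Gata2 window, are exonic in GENCODE M21.
Isl1, chr13:116309689-116309938, minus strand: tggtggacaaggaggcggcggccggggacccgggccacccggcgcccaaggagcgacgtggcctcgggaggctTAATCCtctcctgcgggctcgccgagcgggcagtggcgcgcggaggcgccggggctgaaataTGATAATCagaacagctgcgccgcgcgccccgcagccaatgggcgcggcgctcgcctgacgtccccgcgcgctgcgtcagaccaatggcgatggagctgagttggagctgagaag
Fshb, chr2:107059652-107059901, minus strand: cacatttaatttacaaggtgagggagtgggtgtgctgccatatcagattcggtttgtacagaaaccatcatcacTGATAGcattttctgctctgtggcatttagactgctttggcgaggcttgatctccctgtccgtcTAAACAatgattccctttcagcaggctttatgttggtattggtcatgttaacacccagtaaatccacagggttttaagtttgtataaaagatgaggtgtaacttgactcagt
Cga, chr4:34893529-34893778, plus strand: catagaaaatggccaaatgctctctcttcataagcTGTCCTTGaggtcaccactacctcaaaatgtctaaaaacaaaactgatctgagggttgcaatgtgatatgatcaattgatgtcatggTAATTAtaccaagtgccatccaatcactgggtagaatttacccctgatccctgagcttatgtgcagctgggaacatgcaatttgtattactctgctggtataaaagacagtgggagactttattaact
Lhb, first NR5A1 match, chr7:45420809-45420832, plus strand: ggcttcccTGACCTTGtctgtgtc
Lhb, PITX core match, chr7:45420838-45420858, plus strand: cccaaagaGATTAgtgtctag
Lhb, second NR5A1 match, chr7:45420879-45420902, plus strand: ctacttagTGGCCTTGccaccccc

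The Lhb window held 2 NR5A1 matches, at positions -129 to -122 and -59 to -52 from the start, and between them a PITX core match at -100 to -96. The Isl1 window held TAATCC at -177 to -172 and the GATA match TGATAA at -115 to -110, which overlaps a PITX core match at -112 to -108. In Fshb a GATA match (TGATAG, -176 to -171) and a forkhead match (-112 to -107) were found. In Cga an NR5A1 match lay at -215 to -208 and TAATTA at -128 to -123, and in Gnrhr, the GnRH receptor gene, a PITX core match lay at -124 to -120. Among all 32851 windows of this length, 26.5% held a GATA match, 5.53% an NR5A1 match, 6.25% TAATCC, 19.8% its core, 4.84% TAATTA and 12.0% TAAACA. These are matches of letters and not measured binding sites. The windows of Lhx3, Lhx4, Foxl2, Nr0b1 and Gata2 held no match to these letters, and entries for Pitx1, Nr5a1 and Foxp2 were not in the table.

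Total counts ran from 10646909 to 21135301 per library. All 7 gonadotrope markers (Lhb, Fshb, Cga, Gnrhr, Nr5a1, Foxp2 and Tgfbr3l) had counts in every library. Nr5a1 and Foxp2 are also among the 8 factors. The summed CPM (counts of a gene per 1000000 in its library, scaled by TMM factors) of these markers was 15179 and 13802 in controls and 6764 and 8051 in cKO. Cga, Lhb and Fshb led these sums. Control replicate 1 stood apart from the rest: its log2 CPM across genes correlated at r = 0.841 to 0.889 with the other libraries, against 0.902 to 0.928 among those 3. It was also the shallowest library, with 10646909 counts. It had 15425 genes with a count, against 17624 to 21824 in the others, and the part of depth in its correlations was not tested. Markers of other cells were also counted. The summed CPM of 4 lactotrope markers, all with counts in every library, was 358 and 629 in controls and 1350 and 1365 in cKO. In contrast, 5 corticotrope and melanotrope markers, led by Pomc and with Pax7 at 0 in cKO replicate 1, summed to 7528 and 10201 in controls and 6338 and 7507 in cKO. The 4 endothelial markers summed to 17.6 and 25.0 CPM in controls and 18.01 and 10.06 in cKO, with Pecam1 and Cdh5 counted in every library and Emcn at 0 in all of them. Of the 4 macrophage and leukocyte markers, C1qa and C1qb were at 0 in every library, Csf1r had 40 counts in control replicate 1 alone and Ptprc 26 in control replicate 2 alone. Mitochondrially encoded genes held 5.42% and 6.15% of counts in controls and 7.76% and 8.98% in cKO. The part of these differences in the results below was not tested, and in bulk libraries fewer cells of a type and less RNA per cell cannot be told apart.

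By level, the factors covered a wide range. Per kilobase of exon, Pitx1 was the most abundant of the 8 in controls, at 240 CPM per kb. Nr5a1 (79.5) and Foxl2 (69.2) came next and overlapped each other between libraries. Lhx3 stood at 49.4 CPM per kb, Isl1 at 24.6 and Nr0b1 at 13.4, each clear of its neighbours. Foxp2 (6.68) and Lhx4 (5.57) were lowest and overlapped each other. The Foxp2 value is set against 16.3 kb of exon, the union over its 20 annotated transcripts. In cKO libraries this order was less spread at the top: Pitx1 had 78.7 and 82.6 CPM per kb, inside the range of Nr5a1, which had 64.8 and 87.7. Foxl2 and Lhx3 also overlapped in cKO, as did Isl1 and Nr0b1. Gata2 stood at 99.5 and 97.4 CPM per kb in controls and 40.9 and 39.7 in cKO.

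**Figure D1:**
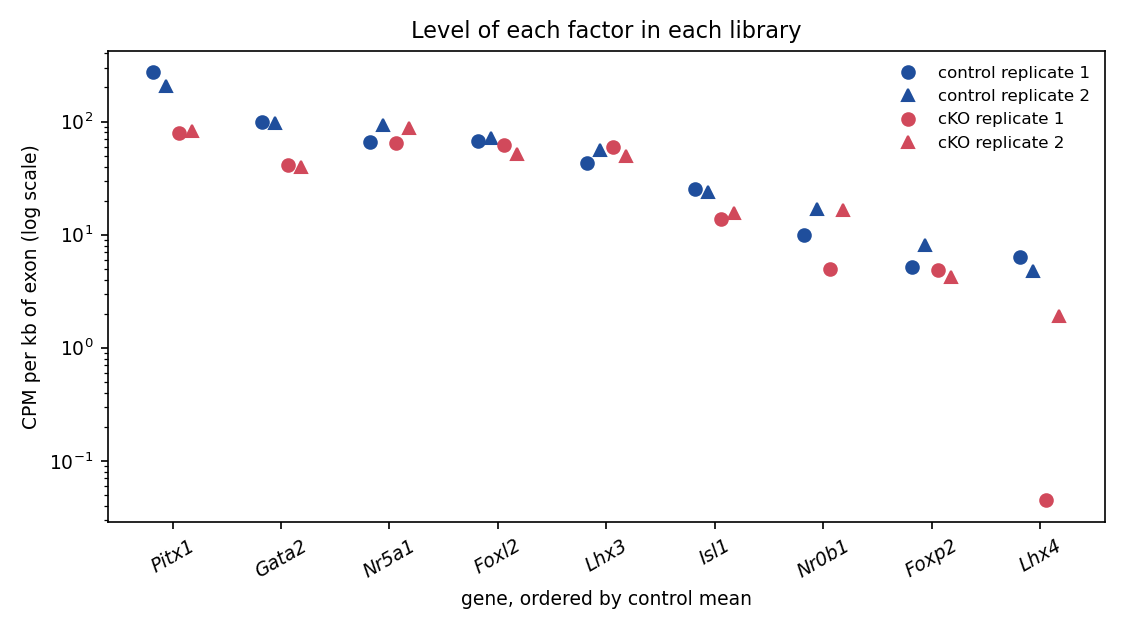
Level of the 8 factors and Gata2 in each of the 4 libraries, in CPM per kb of exon on a log axis, with genes ordered by their control mean; circles are replicate 1, triangles replicate 2, blue control and red cKO. The Pitx1 points of the cKO libraries (78.7 and 82.6) lie far below those of the controls, and the lowest point is Lhx4 in cKO replicate 1 (0.0448).

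Of the 8 factors 0 passed the threshold of an adjusted p under 0.05, by edgeR's quasi-likelihood test over the 17349 genes tested, of which 0.0576% passed. All 8 were tested. Of the estimates 7 lay below 0, and the median log2 fold change was -0.44, against 0.03 over all genes tested. For 5 of the 8, Pitx1, Lhx4, Isl1, Foxl2 and Foxp2, both cKO libraries lay below both controls, a pattern found in 19.3% of all genes tested. At an unadjusted p under 0.05 there were 2 factors, Pitx1 and Isl1, both lower in cKO, against 3.88% of all genes that were lower at that level. DESeq2 called 2 of the 8, Pitx1 and Isl1, both lower, where it called 5.55% of all genes.

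Gata2 itself is the reference for size. Its level was 537 and 526 CPM in controls (replicate 1, then replicate 2, here and below) and 221 and 214 CPM in cKO. Expressed as a log2 fold change, cKO minus control, this was -1.29 with a standard error (SE) of 0.14, an adjusted p of 0.0473 by edgeR and a 95% interval from -1.61 to -0.96. The call was lost with a filter of 1 CPM in 2 libraries (edgeR's adjusted p = 0.0620) and with the replicate block (0.0643).

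Pitx1, which codes for the bicoid-type homeodomain factor PITX1, showed a difference of similar size. The gene (ENSMUSG00000021506.7) lies on mm10 chromosome 13 at 55825051 to 55836192 on the minus strand. Its level was 725 and 547 CPM in controls and 209 and 219 CPM in cKO. The groups did not overlap, and the cKO libraries lay close together while control replicate 1 was the highest. The cKO level was 33.7% of control, a log2 fold change of -1.57 (SE 0.17, 95% interval -1.98 to -1.16). By edgeR the adjusted p was 0.0575, so Pitx1 missed the threshold, and by p it ranked 11 among all 17349 genes, directly after the 10 that passed. It passed with DESeq2 (adjusted p = 1.79e-17), which called 5.55% of all genes tested, and with limma-voom, which called 1.48%. With no filter, robust=TRUE and edgeR's newer quasi-likelihood method it also passed, where 1.04%, 0.15% and 0.271% were called. It missed with the other scalings, the replicate block and the filter of 1 CPM in 2 libraries (edgeR's adjusted p = 0.0787). There are 2 annotated genes that overlap Pitx1, with 261 and 228 counts over all libraries, against 3252 to 11451 counts of Pitx1 in each library.

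Among the 3 LIM homeodomain genes, Isl1 and Lhx4 had both cKO libraries below both controls, as had 19.3% of all genes tested. The Lhx3 groups overlapped. Isl1 codes for ISL1, a factor of gonadotropes, thyrotropes and many neurons, and its gene (ENSMUSG00000042258.13) lies on chromosome 13 at 116298281 to 116309689. It had 100.4 and 94.6 CPM in controls and 54.5 and 61.0 CPM in cKO. The groups did not overlap and the spread within each was small. The cKO level was 59.3% of control, a log2 fold change of -0.75 (SE 0.21, 95% interval -1.25 to -0.26, unadjusted p = 0.00876). After adjustment over all genes by edgeR the p was 0.563. Between alternatives the estimate moved from -0.85 to -0.68, and DESeq2 was the 1 test that called it.

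Lhx3 codes for LHX3, which the pituitary needs to form and which acts on the Cga promoter. On chromosome 2, at 26200212 to 26208289, the gene (ENSMUSG00000026934.15) had 131 and 170 CPM in controls and 180 and 152 CPM in cKO. The groups overlapped, with control replicate 1 the lowest library. The log2 fold change was 0.14 (SE 0.20, edgeR's adjusted p = 0.999), and the 95% interval from -0.33 to 0.61 leaves out the Gata2 estimate of -1.29, which is not a test of the difference between the genes. Gm27196, on the opposite strand, shares 188 exonic bases with Lhx3 and had 230 to 358 counts per library. There were 0.767 and 0.556 counts of Isl1 for each count of Lhx3 in controls and 0.302 and 0.402 in cKO.

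Lhx4 codes for LHX4, a close relative of LHX3 that acts in the growing pituitary primordium. Its gene (ENSMUSG00000026468.14) spans 155698031 to 155751684 on chromosome 1, and its mean per kilobase was the lowest of the 8, in a range that overlapped that of Foxp2 in controls. There were 404 and 570 counts in controls and 4 and 195 in cKO, or 36.7 and 27.2 CPM against 0.257 and 10.96 CPM. Both cKO libraries lay below both controls, and the gap between them on a log scale was the widest within a group among the 8 factors. This gave a log2 fold change of -2.50 with an SE of 1.22 and a 95% interval from -5.38 to 0.37 (edgeR's adjusted p = 0.744). Without cKO replicate 1 the estimate was -1.55, and without cKO replicate 2 it was -6.93 and passed the threshold.

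Both nuclear receptor genes had groups that overlapped. Nr5a1 codes for NR5A1, the receptor that acts on Lhb, Gnrhr and Cga, and its gene (ENSMUSG00000026751.14) lies on chromosome 2 at 38692656 to 38714542. Its level was 277 and 397 CPM in controls and 275 and 372 CPM in cKO. Each group held 1 low and 1 high library, and the spread within a group was larger than the difference between the means (337 ± 84.9 and 323 ± 68.8 CPM, SD, n = 2 each). Between the groups the log2 fold change was -0.06 (SE 0.23, 95% interval -0.59 to 0.47, edgeR's adjusted p = 0.999). This interval leaves out the Gata2 estimate but holds 0 and small losses such as the Foxl2 estimate of -0.29. The estimate was -0.30 without control replicate 1 and 0.23 without control replicate 2. The antisense gene Nr5a1os overlaps the Nr5a1 span without sharing exonic bases and had 58 to 189 counts per library.

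Nr0b1 codes for DAX1, a receptor without a DNA-binding domain of the usual kind that represses NR5A1, and its gene (ENSMUSG00000025056.4) lies on chromosome X at 86191764 to 86195947. It had 17.8 and 30.6 CPM in controls and 8.94 and 29.7 CPM in cKO. Replicate 1 was the low library in both groups, which overlapped. Its log2 fold change of -0.33 has an SE of 0.62 and an interval from -1.78 to 1.13, which holds both 0 and the Gata2 estimate. Nr0b1 had 0.0643 and 0.0771 counts for each count of Nr5a1 in controls and 0.0325 and 0.0798 in cKO. Leaving out a library moved the Nr0b1 estimate between -1.45 and 0.29.

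For both forkhead genes both cKO libraries lay below both controls, as for 19.3% of all genes tested, and neither passed the threshold. Foxl2 codes for FOXL2, the forkhead partner of SMAD proteins at Fshb and Fst, and its gene (ENSMUSG00000050397.4) lies on chromosome 9 at 98955288 to 98958543. It had 217 and 234 CPM in controls and 201 and 167 CPM in cKO, without overlap. The cKO level was 81.8% of control, a log2 fold change of -0.29 (SE 0.17, 95% interval -0.69 to 0.11, edgeR's adjusted p = 0.837). Its divergent neighbour Foxl2os, chosen after values were seen, had 223 and 261 CPM in controls and 252 and 236 in cKO (log2 fold change 0.01, SE 0.16). Both genes share 12 exonic bases on opposite strands. There were 0.970 and 0.894 counts of Foxl2 for each count of Foxl2os in controls and 0.799 and 0.708 in cKO.

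Foxp2 codes for FOXP2, a forkhead repressor used as a marker of mature gonadotropes. The gene (ENSMUSG00000029563.16) spans 14901349 to 15441977 on chromosome 6, which also carries Gata2. It had 85.2 and 133 CPM in controls and 80.2 and 69.0 CPM in cKO. The cKO libraries lay below both controls, though cKO replicate 1 was near control replicate 1. The log2 fold change was -0.55 (SE 0.26, 95% interval -1.17 to 0.06, edgeR's adjusted p = 0.736). The estimate was -0.85 without control replicate 1 and -0.19 without control replicate 2.

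**Figure D2:**
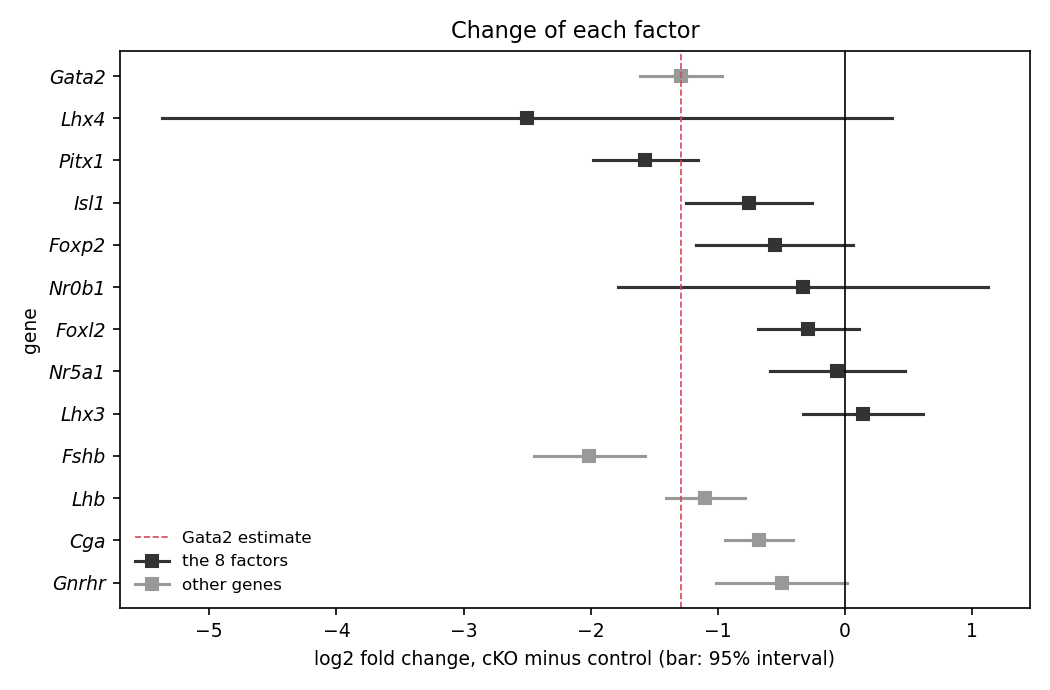
Log2 fold change, cKO minus control, of the 8 factors (dark), and of Gata2 and 4 gonadotrope genes (grey), with 95% intervals as bars; the dashed line is the Gata2 estimate of -1.29. The Pitx1 interval holds that line and lies wholly below 0, whereas those of Lhx3, Nr5a1, Foxl2 and Foxp2 hold 0 and lie above the line. The Isl1 interval lies between the line and 0, and those of Lhx4 and Nr0b1 hold both.

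Each factor was also set against Gata2 within each library, with no test. Pitx1 had 1.35 and 1.04 counts for each Gata2 count in controls and 0.946 and 1.02 in cKO, so the 4 libraries lay close together, with the cKO libraries just under the lower control. Nr5a1 had 0.516 and 0.755 in controls and 1.24 and 1.74 in cKO, and Lhx3 had 0.244 and 0.323 in controls and 0.815 and 0.708 in cKO. The ratio was above both controls in both cKO libraries for 5 of the 8, Nr5a1, Lhx3, Isl1, Foxl2 and Foxp2, as it was for 72.1% of all genes tested, since Gata2 itself fell. It was below both controls for Pitx1 and Lhx4, against 2.52% of all genes. The nearest libraries of the groups, control then cKO, were 1.04 and 1.02 for Pitx1 and 0.0518 and 0.0511 for Lhx4. For Isl1 the ratio went from 0.187 and 0.180 in controls to 0.246 and 0.285 in cKO, a smaller gap than that of Lhx3. On the log2 scale the differences between the groups were -0.27 for Pitx1, 0.53 for Isl1, 0.77 for Foxp2, 0.77 for Nr0b1, 0.99 for Foxl2, 1.23 for Nr5a1, 1.44 for Lhx3 and -2.95 for Lhx4. The Nr0b1 libraries overlapped, and the Lhx4 value was -0.22 without cKO replicate 1.

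**Figure D3:**
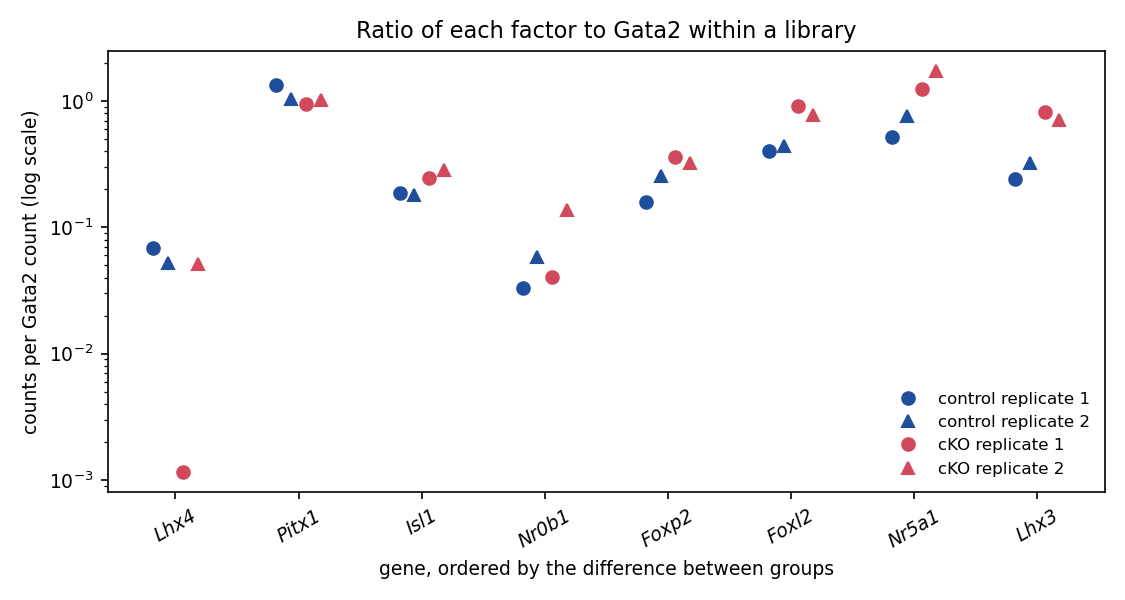
Counts of each factor per count of Gata2 in each of the 4 libraries, on a log axis, with genes ordered by the difference between groups; circles are replicate 1, triangles replicate 2, blue control and red cKO. The Pitx1 points lie between 0.946 and 1.35, while the cKO points of Nr5a1, Foxl2 and Lhx3 lie above both controls.

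Leaving out single libraries moved some estimates little and others far. For Pitx1 the estimate ran from -1.76 (without control replicate 2) to -1.36 (without control replicate 1), and for Isl1 from -0.85 to -0.68. The sign of the estimate changed for Nr5a1, Lhx3 and Nr0b1, whose estimates lay near 0 relative to their errors. Control replicate 1 was the lower control library for Nr5a1, Lhx3, Foxl2, Foxp2 and Nr0b1 and the higher one for Pitx1, Lhx4 and Isl1.

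**Figure D4:**
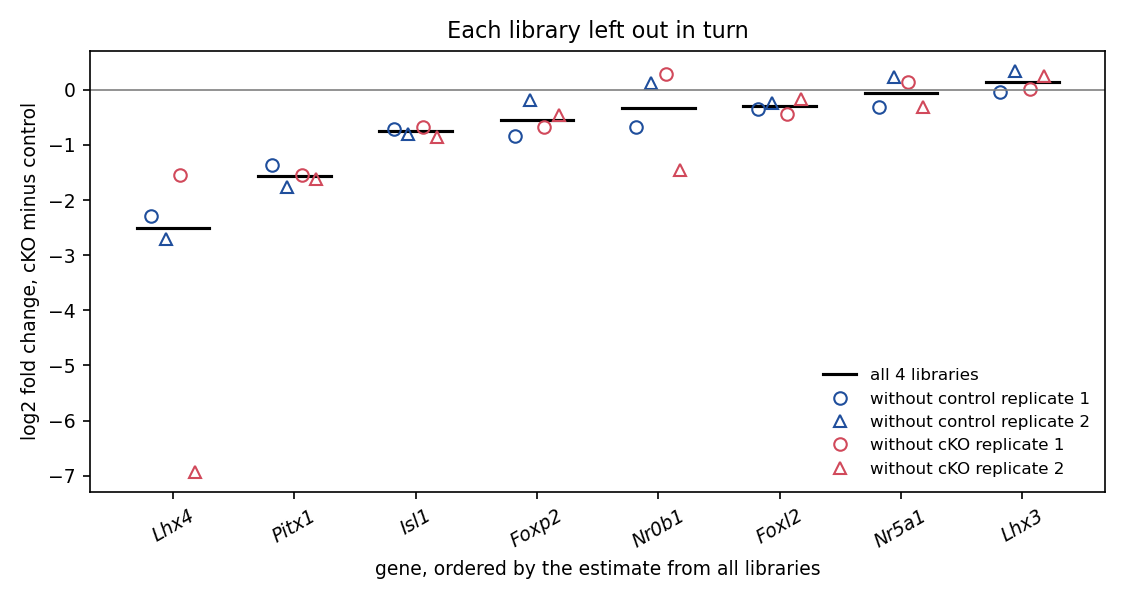
Log2 fold change, cKO minus control, of each of the 8 factors with all 4 libraries (bars) and with each library left out in turn (open symbols; blue for a left-out control, red for a left-out cKO library). Pitx1 stays between -1.76 and -1.36, while Lhx4 moves between -6.93 and -1.55.

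A further list held 7 genes on which these factors are known to act or that mark gonadotropes. Of these, 6 were tested, all with estimates below 0 and a median of -0.89, and 1, Fshb, passed the threshold. The series title names FSH deficiency, so the direction of Fshb is not independent evidence. Fshb had 3263 and 2496 CPM in controls and 618 and 812 in cKO, and Lhb had 5144 and 4099 in controls and 2069 and 2245 in cKO. The Fshb call (edgeR's adjusted p = 0.0381) was lost with the filter of 1 CPM in 2 libraries (0.0531). Relative to Pitx1, Lhb was higher in cKO: there were 7.09 and 7.49 counts of Lhb for each count of Pitx1 in controls and 9.89 and 10.2 in cKO. For Fshb that ratio was 4.50 and 4.56 in controls and 2.95 and 3.70 in cKO. Relative to Nr5a1, whose groups overlapped, there were 18.6 and 10.3 counts of Lhb in controls and 7.53 and 6.04 in cKO. Inhbb, the gene of the inhibin and activin beta B subunit, gave a log2 fold change of -1.90 (SE 0.26, edgeR's adjusted p = 0.108), Cga -0.68 (SE 0.11) and the GnRH receptor gene Gnrhr -0.50 (SE 0.22). Fst, for follistatin, had counts in control replicate 2 alone (47) and was not tested.

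A wider list held other factors that act on gonadotropin promoters. Of 35 tested members of this list of 36, 18 had estimates above 0 and 17 (48.6%) below, with a median of 0.02, near the 47.6% below 0 and the median of 0.03 over all genes tested, and Gata2 was the 1 that passed. Junb, an AP-1 subunit, gave a log2 fold change of 0.32 (SE 0.12, edgeR's adjusted p = 0.668), the progesterone receptor gene Pgr 0.995 (SE 0.40) and Smad4 0.58 (SE 0.25). The lowest estimates of the list, -1.77 for Meis1 (SE 0.85) and -1.54 for Dlx3 (SE 1.27), were picked after their values were seen and had wide errors.

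Of 13 early pituitary factors 11 were tested, 5 with estimates above 0 and 6 below, and 0 passed the threshold. Sox9, for a factor of pituitary stem cells, had 24.4 and 27.4 CPM in controls and 58.0 and 73.0 CPM in cKO, a log2 fold change of 1.34 (SE 0.28, edgeR's adjusted p = 0.385). Hesx1, for a homeodomain repressor of the early pituitary, had 43 and 95 counts in controls and 0 in both cKO libraries. Its control mean was 23.4-fold above a floor of 3 counts per cKO library, a value that leaves out the spread between libraries. By edgeR the 95% interval of its log2 fold change ran from -16.3 to -1.95 (unadjusted p = 0.0205, adjusted p = 0.643). Sox2, for another factor of pituitary stem cells, had 12.7 and 16.7 CPM in controls and 23.7 and 22.1 CPM in cKO (log2 fold change 0.64, SE 0.43), and Eya1, for a transcriptional cofactor, had a value of -0.31 (SE 0.16). Sox9 and Sox2 are among the 4 stem cell markers, which summed to 95.1 and 140 CPM in controls and 168 and 179 CPM in cKO. Of the other members of that list, Aldh1a2 had 22.4 and 21.9 CPM in controls and 8.30 and 16.6 in cKO, and Lgr4 had 35.6 and 74.0 in controls and 77.8 and 67.4 in cKO. The part of stem cells in the Sox9 and Sox2 values was not tested.

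Factors of other hormone lineages gave 4 estimates above 0 and 5 below among 9 tested, with 0 past the threshold. Pou1f1, for the factor of somatotropes, lactotropes and thyrotropes, had 3.91 and 9.65 CPM in controls and 21.0 and 19.6 in cKO (log2 fold change 1.57, SE 0.62, edgeR's adjusted p = 0.692). Neurod4, which codes for a basic helix-loop-helix factor, had 1.76 (SE 0.69) and Tbx19, for the corticotrope and melanotrope factor, -0.40 (SE 0.36). Insm1, for a zinc-finger factor of endocrine cells, had -0.22 (SE 0.19). The Pou1f1 libraries moved with the lactotrope markers given above. They did not move with the 3 somatotrope markers, led by Gh, which summed to 1143 and 2395 CPM in controls and 2166 and 399 in cKO. The 3 thyrotrope markers summed to 77.2 and 68.7 CPM in controls and 136 and 92.3 in cKO. Among these, Tshb went the other way, with 22.3 and 13.7 CPM in controls and 7.33 and 7.08 in cKO. The part of any of these cells in the Pou1f1 values was not tested.

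**Figure D5:**
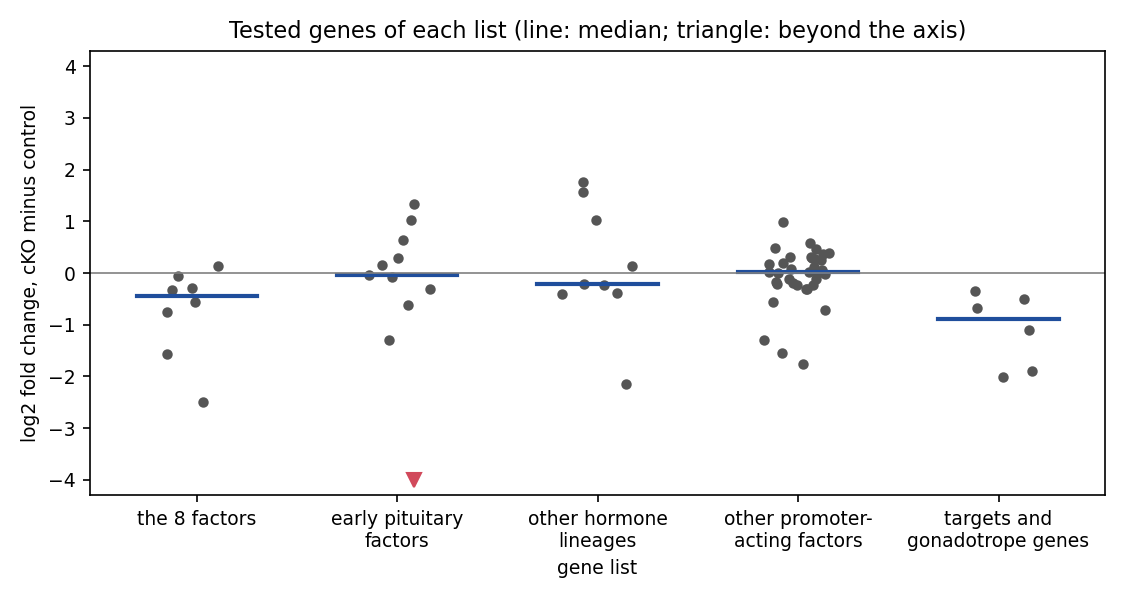
Log2 fold changes, cKO minus control, of the tested genes in the list of 8 factors and in 4 other lists, with the list median as a line; the triangle is Hesx1, which lies beyond the axis. The median is -0.44 for the 8 factors and -0.89 for the targets and gonadotrope genes, and it lies near 0 for the other promoter-acting factors.

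The genes whose pattern over the 4 libraries was most like that of Pitx1, among 8573 candidates whose average log2 CPM reached 4, were Scg2, Lrrn2 and Evc2. Likeness was the root mean square difference between centred log2 CPM values, which was 0.0731 for Scg2, 0.0767 for Lrrn2 and 0.0879 for Evc2. Scg2, for a secretory granule protein, had 22408 and 16411 CPM in controls and 6883 and 7496 in cKO. Like Pitx1, all 3 had their highest value in control replicate 1, which the choice by likeness favours. With 4 libraries that differ mainly by group, such likeness describes these libraries only.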

How the data were processed

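Estimated counts per gene for 4 libraries had been deposited by the authors, and the submitters' processing notes name STAR (2.5.1b), featureCounts (1.5.0-p1) and the mm10 build. How strand and multiply matching reads were handled, and with which annotation, is not stated in the labels or file. Some reads had been divided between genes, as 4.5% of values were not whole. Gene symbols, positions and exon lengths came from GENCODE M21 (mm10), matched by identifier without version.

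Counts were rounded, filtered with filterByExpr (minimum count 10, minimum total 15) and scaled by TMM. Groups were compared in edgeR 4.0.16 (R 4.3.3) by its quasi-likelihood test, two-sided, without covariates, and p-values were adjusted over all genes by Benjamini-Hochberg. The SE is the log2 fold change divided by the square root of F, and intervals are 95%. DESeq2 1.42.0, limma-voom (limma 3.58.1), other scalings and filters, a replicate block and left-out libraries were alternatives. Upstream sequences are RefSeq's, for GRCm38.p6. The fit was also run on counts simulated from the means and spreads of these libraries. That run cannot show how well the fit suits them.

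The factors and the lists were chosen with earlier results of these data known. Named were the 8 factors, Gata2, Fshb, Lhb, Cga and Gnrhr, up to 4 genes per other list by smallest p, and the 3 genes most like the factor with the smallest p. Other genes (Foxl2os, Isl2, overlapping genes, markers) were chosen after values were seen. Some genes of the lists are not reported here. At 2 libraries per group an exact permutation test cannot go below p = 0.33. Whether replicate numbers pair the libraries is not known. Across genes, the deviations of control replicate 1 and cKO replicate 1 from their group means correlated at -0.011, which cannot exclude pairing.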

Additional observations from a re-analysis of the deposited data

How the results depend on the processing

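The count of 10 genes past the threshold became 963 with DESeq2, 256 with limma-voom, 253 with no filter, 26 with robust=TRUE, 3 with a filter of 1 CPM in 2 libraries and 47 with edgeR's newer quasi-likelihood method, which was added after seeing the data, and 66 to 681 with 1 library left out. The count of 0 among the 8 factors became 2 with no filter (Pitx1 and Lhx4), 2 with DESeq2 (Pitx1 and Isl1), 1 with limma-voom, 1 with robust=TRUE and 1 with the newer method (Pitx1 in each), and 1 to 2 with 1 library left out. It stayed at 0 with the other scalings, with 1 CPM in 2 libraries and with the replicate block, which gave 7 genes in all and a Pitx1 value of -1.56 (adjusted p 0.0577). Why these counts differ was not tested, and where a group is left with 1 library, its spread is taken from the other. With 1 library left out the log2 fold change ran from -0.31 to 0.23 for Nr5a1 (0.14 without cKO replicate 1), from -0.042 to 0.35 for Lhx3, from -1.45 to 0.29 for Nr0b1 (0.12 without control replicate 2) and from -0.87 to 0.27 for Tbx19, each with a change of sign. Without control replicate 2 the median of all genes was 0.25, and that of the early pituitary factors 0.45. The 95% intervals of Foxl2 (-0.69 to 0.11) and Foxp2 (-1.17 to 0.06) hold both 0 and losses of that size.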

Other observations

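As a description added after the values were seen, the 8 factors were ordered by how closely their pattern over the 4 libraries followed that of Gata2, by the root mean square difference of centred log2 CPM values. Among 17348 genes, Pitx1 ranked 90 (difference 0.193) and Isl1 ranked 269 (0.278). Foxp2 ranked 1563 (0.457), Foxl2 2215 (0.505), Nr5a1 5529 (0.668) and Lhx3 7237 (0.735). Nr0b1 (8219) and Lhx4 (16306) lay farthest, each with cKO libraries that differed widely from each other. Lhb ranked 49 and Cga 470 by the same measure, and Fshb, which was lower by more than Gata2, ranked 1080.

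Another LIM homeodomain gene differed between the cKO libraries. Isl2, a relative of Isl1, had 16.4 and 15.5 CPM in controls and 4.63 and 15.96 CPM in cKO. It was picked after its values were seen, and its log2 fold change was -0.63 (SE 0.69, edgeR's adjusted p = 0.999). Its low value was in cKO replicate 1, the library in which Lhx4 had 4 counts and Nr0b1 was also lowest.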
